A study of Homo sapiens with 12 samples.

Results

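The genes described here encode nuclear subunits of the mitochondrial respiratory chain and of ATP synthase. They were chosen by name from the protein-coding rows of the deposited table: genes starting with NDUFA, NDUFB, NDUFC, NDUFS, NDUFV, SDHA, SDHB, SDHC, SDHD, UQCR, COX4, COX5, COX6, COX7, COX8 or ATP5, without assembly factors and without hyphenated names. The rule gave 89 of 58735 genes, of which 37 were placed in complex I, 4 in complex II, 9 in complex III, 19 in complex IV and 20 in complex V. NDUFA4 and its paralog NDUFA4L2 were placed in complex IV, where the NDUFA4 protein resides. The name rule also takes in ATP5IF1, the inhibitor of ATP synthase, ATP5S, a coupling factor, and COX7A2L, which helps join complexes III and IV. It leaves out CYC1, a cytochrome subunit of complex III, which was read with the carriers and cytochrome c genes.

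The RNA came from tumor-associated macrophage (TAM) models, made by treating the human monocytic leukaemia line THP-1 with PMA. A Transwell membrane kept these TAMs apart from cocultured AsPC-1 cells, a pancreatic cancer line, so that secreted factors could pass between the cell types. In the control group the AsPC-1 cells carried an empty vector, and in the OE-MMP28 group they had been transduced to overexpress the metalloproteinase MMP28. The other groups, called anti-IL-8 and anti-VEGFA here, had the same MMP28-overexpressing cancer cells plus a neutralizing antibody against IL-8 or against VEGFA. Each of the 4 groups held 3 libraries, and none is named for a control antibody, so an effect of adding any antibody and an effect of the blocked cytokine cannot be told apart. All groups share the THP-1 line and the PMA treatment, and the TAMs are models of macrophages, not cells from tumors. Since the labels do not say that replicates were separate cultures, the p-values measure the spread between these libraries, which may be technical.

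The respiratory chain passes electrons from NADH (complex I) and succinate (complex II) through complex III to complex IV, which reduces oxygen. The proton gradient built along the way drives ATP synthase, complex V. Mitochondrial DNA encodes a small set of core subunits, and nuclear genes, such as those described here, supply the rest. In macrophages, the balance between respiration and glycolysis is known to shift with activation state.

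Libraries held 15852346 to 18701195 counts, and the 89 genes took 0.594% to 0.837% of them. Mitochondrial DNA transcripts took 6.92% to 17.8%. In OE-MMP28, anti-IL-8 and anti-VEGFA alike, 1 library had a TMM scaling factor under 0.95, a limit chosen after the data were seen. In OE-MMP28 this library stood apart from the other replicates, which had 1.03 each. The factors were more evenly spaced in anti-IL-8 (0.935, 1.02 and 0.972) and anti-VEGFA (1.06, 0.942 and 1.00). OE-MMP28 replicate 3, anti-IL-8 replicate 1 and anti-VEGFA replicate 2 had factors of 0.928, 0.935 and 0.942, against 0.972 to 1.06 in the other 9. They also had the highest mitochondrial DNA share of their groups (12.3%, 11.3% and 17.8%), though OE-MMP28 replicate 2 was close at 11.8%. TMM factors correct library totals for a few abundant genes. A list of 12 macrophage markers summed to 6187 to 7023 CPM (counts scaled by TMM to equal library totals) in control, 5711 to 9248 in OE-MMP28, 8441 to 10793 in anti-IL-8 and 6988 to 8780 in anti-VEGFA. Most of each sum came from ITGB2, at 3490 to 7254 CPM, and CD14 had 650.4 to 1771 CPM, while LYZ had only 4.83 to 10.0 CPM and CD68 0 to 5 counts. CD14 rose in OE-MMP28 over control, by 0.80 ± 0.19 on the log2 scale (± SE, edgeR adjusted p = 0.027), and 6 of the 11 tested markers lay above 0. The 10 epithelial markers summed to only 2.64 to 5.80 CPM, and EPCAM and KRT17 had 0 counts in all 12 libraries. MUC1, one of the 2 epithelial markers tested, fell by 1.01 ± 0.25 in OE-MMP28 (adjusted p = 0.034). The part of these markers in the results below was not tested, and in such bulk libraries fewer cells of a type and less RNA per cell cannot be told apart.

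Many promoters of respiratory genes are known to be bound by the nuclear respiratory factor NRF1, by ETS-family factors such as GABPA, and by YY1, and they are shown here because the members moved together across libraries. RefSeq promoters (GRCh38.p14, 250 bases before to 50 after the start) matched 72 of the 89 genes. The NRF1 letters GCGCATGCG, searched on both strands, were in 10 of them (13.9%) and in 2.76% of all 15843 protein-coding promoters. The ETS letters CCGGAAG were in 20 (27.8%) against 14.2%, and the YY1 letters AAGATGGCG in 8 (11.1%) against 2.74%. A match is a run of letters, not a proven site. Stretches of 4 promoters follow, read 5′ to 3′ on the gene's strand with the letters in capitals and without bases that GENCODE 29 places in an exon: NDUFB4 for the NRF1 letters, whose forward and reverse forms overlap there, NDUFB7 and COX5B for the ETS letters, and NDUFA4L2, the member with the largest change among those called in anti-IL-8 against control, for none of the 3.
NDUFB4 (chr3:120596136-120596308, plus strand): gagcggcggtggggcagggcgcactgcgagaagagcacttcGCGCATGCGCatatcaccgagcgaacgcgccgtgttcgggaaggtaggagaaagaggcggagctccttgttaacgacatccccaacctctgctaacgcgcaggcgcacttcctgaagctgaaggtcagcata
NDUFB7 (chr19:14572067-14572266, minus strand): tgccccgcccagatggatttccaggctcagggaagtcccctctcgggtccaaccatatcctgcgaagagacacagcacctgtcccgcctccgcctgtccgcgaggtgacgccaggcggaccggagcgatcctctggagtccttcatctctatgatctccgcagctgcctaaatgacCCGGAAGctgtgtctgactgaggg
COX5B (chr2:97645862-97646039, plus strand): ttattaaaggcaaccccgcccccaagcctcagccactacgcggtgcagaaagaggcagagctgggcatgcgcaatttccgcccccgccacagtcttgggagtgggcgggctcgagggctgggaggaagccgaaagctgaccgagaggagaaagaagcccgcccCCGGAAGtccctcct
NDUFA4L2 (chr12:57240763-57240962, minus strand): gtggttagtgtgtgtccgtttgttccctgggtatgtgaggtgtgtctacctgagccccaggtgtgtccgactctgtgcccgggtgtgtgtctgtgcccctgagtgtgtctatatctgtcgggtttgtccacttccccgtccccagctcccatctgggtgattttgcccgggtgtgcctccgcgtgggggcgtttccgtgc

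The abundance of the subunits spanned several orders of magnitude. The deposited FPKM is scaled for library size and for a gene length close to all its annotated exonic bases. In mean FPKM, UQCRH (the hinge protein of complex III) was highest at 204.2, followed by NDUFS5 at 186.2, the catalytic beta subunit ATP5F1B at 175.2 and COX8A at 151.0. This order favors genes with few exonic bases. NDUFS5 has 548 and COX8A 507, while COX4I1, at a mean FPKM of 82.5, has 4792. Several isoforms and paralogs were nearly silent: COX4I2, COX6A2, COX6B2, COX7A1, COX7B2 and ATP5MGL had at most 2 counts in any library and were not tested, which left 83 genes. The testis isoform COX8C had 2 to 17 counts and NDUFA4L2 41 to 108, against 4931 to 9011 for COX4I1, the common isoform of subunit 4. UQCRHL, a near copy of UQCRH, had 126 to 197 counts, and reads that fit both genes could be assigned to either or dropped.

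Low values for NDUFV2, a core subunit of complex I, and for the accessory subunits NDUFA7, NDUFA9 and NDUFA13 went with overlapping annotation. NDUFV2, the 24 kDa iron-sulfur subunit that complex I needs, had only 5 to 25 counts per library, and 84.7% of its coding bases lie in exons of another gene on the same strand (AP005263.1) in GENCODE 29. NDUFA7 had 3 to 20 counts with 78.3% of coding bases shared, NDUFA13 11 to 70 with 55.2%, and NDUFA9 62 to 102 with 67.9%. Shared bases did not always go with low values, since COX8A shared 55.1% and UQCR11 100% and both were well covered. Reads in shared exons can be given to either gene or to neither, so the levels of these members are uncertain. How far the overlap lowers them was not tested.

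The subunits moved as a block from library to library. The median deviation of the 83 tested members from their own means over the 12 libraries (log2 of CPM + 0.5) was -0.11, -0.12 and -0.21 in the control replicates. It was -0.04, -0.21 and 0.40 in OE-MMP28, 0.31, 0.19 and 0.07 in anti-IL-8, and -0.31, 0.21 and -0.03 in anti-VEGFA. All 3 control libraries therefore lay below all 3 anti-IL-8 libraries, whereas the OE-MMP28 and anti-VEGFA replicates spread over both sides of 0. OE-MMP28 replicate 3, in which 79 of 83 members exceeded their own mean, and anti-VEGFA replicate 1, in which 6 did, were the extremes. The median SD of a member within a group was 0.10 in control, 0.37 in OE-MMP28, 0.16 in anti-IL-8 and 0.30 in anti-VEGFA, beside 0.14, 0.23, 0.16 and 0.22 for all genes tested. The highest library of each of the OE-MMP28, anti-IL-8 and anti-VEGFA groups was the one with a low TMM factor. The 3044 other short mRNAs (up to 1000 bases) had medians of 0.10, 0.11 and 0.06 in these 3 libraries, under the members' 0.40, 0.31 and 0.21. The part of RNA quality and depth in this spread was not tested.

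**Figure D1:**
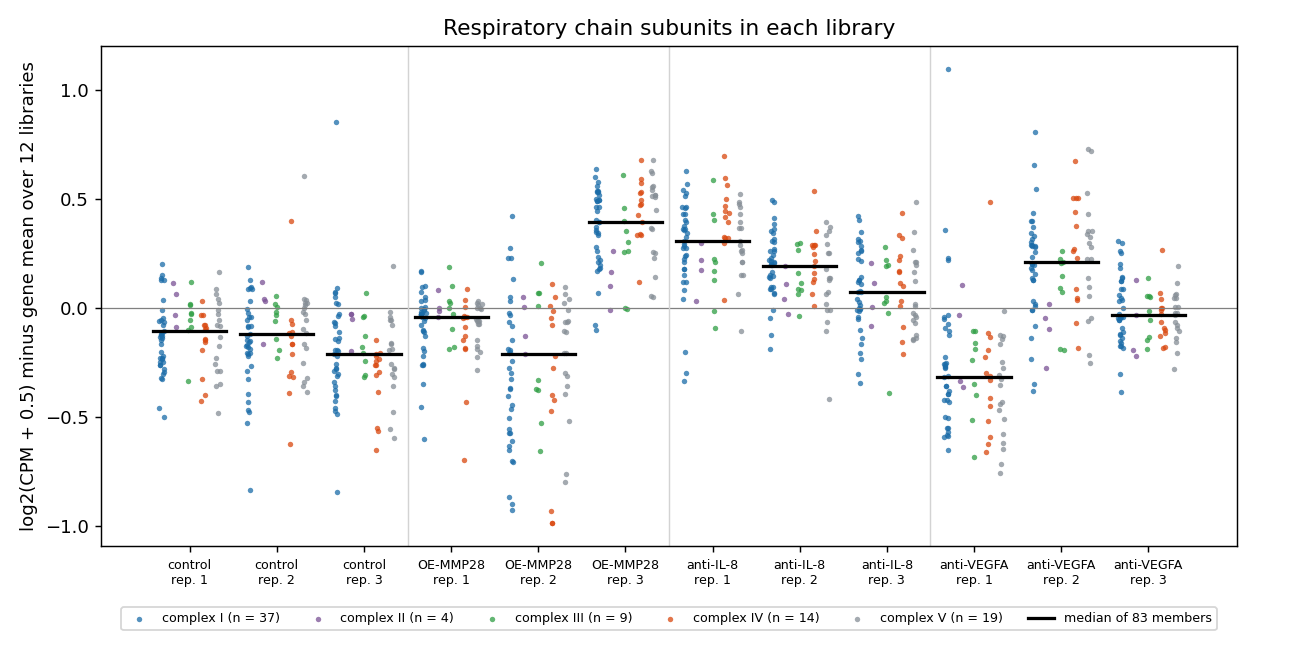
Each point is 1 of 83 tested subunit genes in 1 of 12 libraries, as log2(CPM + 0.5) minus the gene's mean over all libraries, colored by complex; black bars are the median of all members. OE-MMP28 replicate 3 (0.40) and anti-IL-8 replicate 1 (0.31) have the highest medians, and anti-VEGFA replicate 1 (-0.31) the lowest.

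Members differed in how closely they followed this common movement. Against the median of the other members, Pearson's r over the 12 libraries was 0.99 for COX4I1, 0.98 for COX6B1 and 0.98 for NDUFA6, and 60 of 83 members (72.3%) exceeded 0.7, as did 8.58% of the other 15963 genes. Low values were found for ATP5S with 0.01, for NDUFA7 with 0.11, and for several core subunits: NDUFS1 with -0.55, ATP5F1A with 0.08, UQCRC2 with 0.10, SDHC with 0.18 and UQCRFS1 with 0.22. These values share libraries and scaling factors, and they describe the 12 libraries with no test.

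In OE-MMP28 TAMs, compared with control TAMs, the subunits lay mostly above 0, but the shift rested on 1 library. Of 83 members, 1 passed the adjusted threshold (edgeR quasi-likelihood test, Benjamini-Hochberg adjusted p under 0.05), beside 3.16% of 16046 genes tested in either direction and 0.523% higher. Past an unadjusted p of 0.05, 5 were higher and 0 lower, against 5.93% and 8.61% of all genes. The median log2 fold change was 0.23 (0.02 over all genes), and 74 of 83 members were above 0. Without OE-MMP28 replicate 3 the median was 0.01, and without all 3 libraries of low TMM factor 0.0019.

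The called gene was COX7A2L (chr2:42333546-42425088), with 87.8, 93.3 and 78.5 CPM in control and 123, 117 and 147 in OE-MMP28. All 3 OE-MMP28 libraries lay above all 3 control libraries, a log2 fold change of 0.58 ± 0.13 (adjusted p = 0.017). It was not called without control replicate 1 (adjusted p = 0.077), control replicate 3 (0.11) or OE-MMP28 replicate 3 (0.060). NDUFB9, an accessory subunit of the membrane arm of complex I, had the highest log2 fold change of all members, 0.61 ± 0.20, yet missed the threshold (adjusted p = 0.12). Its control libraries had 180, 183 and 182 CPM and its OE-MMP28 libraries 248, 197 and 387.

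By complex, the OE-MMP28 medians were 0.23 (complex I), 0.08 (II), 0.10 (III), 0.27 (IV) and 0.25 (V). SDHA, the flavoprotein of succinate dehydrogenase, was highest in complex II at 0.12 ± 0.12, and SDHC, a membrane anchor, lowest at -0.10 ± 0.12. UQCRB led complex III at 0.33 ± 0.20, and UQCRC1, a core protein, was lowest at -0.04 ± 0.15. ATP5MC1, a source of the c-ring of ATP synthase, led complex V at 0.43 ± 0.19, and ATP5S was lowest of all members at -0.30 ± 0.22. In complexes I and IV the lowest were NDUFA13 (-0.10 ± 0.40) and COX8C (-0.04 ± 0.64), whose few counts leave wide errors. None of the genes in this paragraph passed the adjusted threshold.

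The anti-IL-8 group was compared with OE-MMP28 alone, which is not named for any antibody. Adding an antibody and blocking IL-8 therefore differed together. No member passed the adjusted threshold by edgeR (0.0% of all genes did). DESeq2 called NDUFA4L2 alone (1.2% of members), beside 13.2% of all genes. At an unadjusted p under 0.05, 7 members were higher (NDUFA13, NDUFA8, NDUFB2, NDUFS7, NDUFV1, NDUFA4L2 and ATP5MC2) and NDUFS1 was lower, against 13.4% and 15.9% of all genes. The median log2 fold change was 0.15 (-0.02 over all genes), and 64 of 83 were above 0. Without OE-MMP28 replicate 2 the median was 0.04. Without OE-MMP28 replicate 3 it was 0.37, and 30 members (36.1%) rose, beside 13.5% of all genes in the same fit. Leaving out anti-VEGFA replicate 2 gave 1 call (3.88% of all genes rose), and without the 3 libraries of low TMM factor 23 members (27.7%) rose, beside 11.8% of all genes. This comparison thus turned on which OE-MMP28 libraries entered it.

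NDUFA4L2, a paralog of NDUFA4 known as a hypoxia-responsive gene, had 2.91, 2.81 and 4.49 CPM in OE-MMP28 and 6.95, 6.17 and 4.67 in anti-IL-8. The groups did not overlap, and the log2 fold change was 0.80 ± 0.25 (adjusted p = 0.069). NDUFS1, the largest iron-sulfur subunit of complex I, went the other way: 67.1, 72.2 and 62.6 CPM in OE-MMP28 and 51.9, 52.3 and 57.7 in anti-IL-8, a log2 fold change of -0.32 ± 0.12 (adjusted p = 0.11). NDUFV1, which binds NADH next to NDUFS1 in the same arm, was 94.7, 63.5 and 120 in OE-MMP28 and 120, 113 and 122 in anti-IL-8, at 0.35 ± 0.17 (adjusted p = 0.17).

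The extremes of each complex against OE-MMP28 were SDHC (0.19 ± 0.12) and SDHD (-0.05 ± 0.12) in complex II, UQCRQ (0.31 ± 0.21) and UQCRB (-0.30 ± 0.20) in complex III, and ATP5F1D (0.51 ± 0.25) and ATP5MD (-0.25 ± 0.21) in complex V. In complex I they were NDUFA13 (1.07 ± 0.38) and NDUFA5 (-0.35 ± 0.20), and in complex IV NDUFA4L2 and COX6C (-0.12 ± 0.21). Adjusted p-values of these genes were all above the threshold.

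The anti-VEGFA antibody, compared with OE-MMP28 alone, gave a lower median, which also turned on OE-MMP28 replicate 3. No member was called by edgeR (0.343% of all genes were), while DESeq2 called NDUFA13 and NDUFB5 (2.41% of members), beside 2.67% of all genes. By an unadjusted p of 0.05, 2 were higher and 9 lower, against 10.4% and 8.44% of all genes. The median log2 fold change was -0.11 (-0.0015 over all genes), with 32 of 83 above 0. Without OE-MMP28 replicate 3 it was 0.13, and 4 members (4.82%) rose, beside 5.72% of all genes. Without the 3 libraries of low TMM factor 1 member rose and 1 fell, beside 3.49% and 2.32% of all genes.

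Among the 9 lower members, NDUFS4, an accessory subunit needed for a stable complex I, had 22.2, 24.8 and 24.0 CPM in OE-MMP28 and 14.3, 19.1 and 17.0 in anti-VEGFA (-0.49 ± 0.15, adjusted p = 0.12). UQCRC2, a core protein of complex III, had 94.5, 102 and 87.7 against 77.2, 76.9 and 77.1 (-0.30 ± 0.11, adjusted p = 0.17). Both pairs of groups were separate, yet neither gene passed the adjusted threshold. The others were NDUFB5, NDUFS1, SDHD (-0.30 ± 0.12, the lowest of complex II), UQCRB (-0.44 ± 0.20, the lowest of complex III), COX7A2, COX7B (-0.44 ± 0.18, the lowest of complex IV) and ATP5PB, and ATP5MD (-0.38 ± 0.21) was lowest in complex V. NDUFA13, a complex I subunit also known as GRIM-19, was the highest member, with 0.935, 0.643 and 1.56 CPM in OE-MMP28 and 4.16, 3.30 and 1.97 in anti-VEGFA (1.59 ± 0.37, adjusted p = 0.064). The highest of complexes II to V were SDHA (0.08 ± 0.12), UQCR11 (0.08 ± 0.16), NDUFA4L2 (0.58 ± 0.25) and ATP5F1D (0.32 ± 0.25).

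Against control, with both MMP28 overexpression and the antibody differing, the anti-IL-8 group showed the clearest change. The comparisons of the antibody groups with control share the control libraries with the OE-MMP28 comparison, so they are not independent of it. With anti-IL-8, 12 of 83 members (14.5%) rose and 0 fell past the adjusted threshold, beside 9.77% of all genes that rose and 20.7% that changed in either direction. Of the protein-coding genes tested, 11.5% rose. At an unadjusted p under 0.05, 38 members (45.8%) were higher and only NDUFS1 lower, against 17.2% and 18.7% of all genes. The median log2 fold change was 0.37 (-0.02 over all genes), with 75 of 83 above 0, and it stayed between 0.31 and 0.45 with any 1 library left out. The number called was less steady, and the share of all genes that rose moved with it. When only these 2 groups were fitted, 45 members (55.6% of 81 tested) rose and 1 fell, beside 20% and 19.9% of all genes. DESeq2 gave 19 (22.9%, all genes 11.7%), offsets for transcript length and GC 21 (25.3%, all genes 7.76%), and leaving out the 3 libraries of low TMM factor 23 (27.7%, all genes 10.5%). Without control replicates 1, 2 and 3 the members that rose were 7, 4 and 3 (8.43%, 4.82% and 3.61%), beside 4.88%, 3.12% and 2.9% of all genes. Leaving out anti-IL-8 replicates 1 and 3 gave 6 and 7 (7.23% and 8.43%), beside 4.23% and 3.43%. Omitting a library outside the comparison gave 28 and 33 for OE-MMP28 replicates 2 and 3 (33.7% and 39.8%, all genes 13% and 13.4%) and 26 for anti-VEGFA replicate 2 (31.3%, all genes 13.3%). In the same comparison 4 of 11 tested macrophage markers rose, CD14 among them (1.07 ± 0.20, adjusted p = 0.0017), and PTPRC fell by 0.73 ± 0.15 (adjusted p = 0.0047), and their part in the members' rise was not tested.

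**Figure D2:**
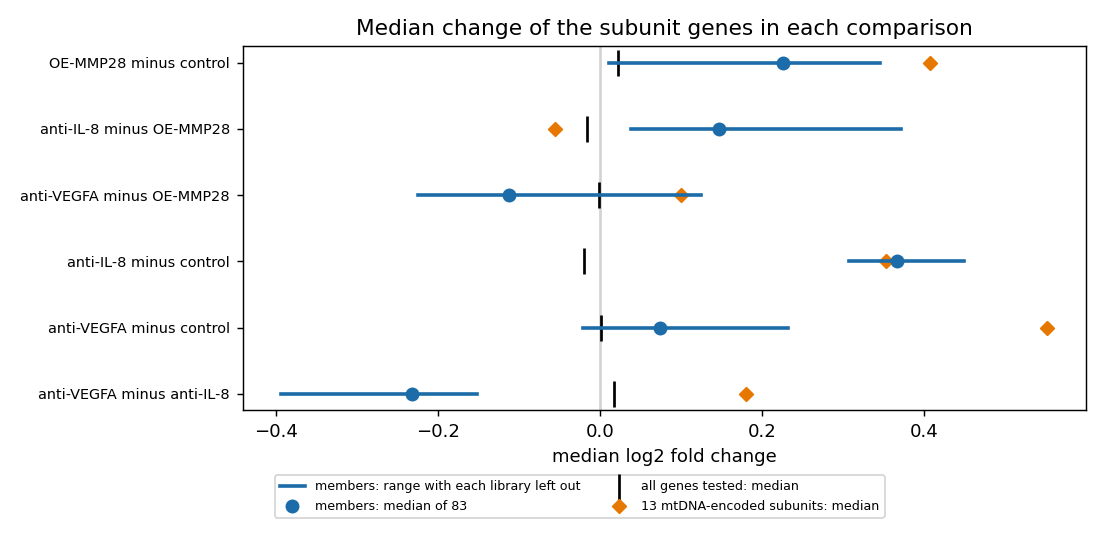
Blue points are the median log2 fold change of the 83 tested subunit genes in each of 6 comparisons, and blue lines the range of that median with each of the 12 libraries left out in turn; black ticks are the median of all genes tested and orange diamonds that of the 13 subunits encoded by mitochondrial DNA. For anti-IL-8 minus control the range (0.31 to 0.45) stays clear of 0, while for anti-VEGFA minus OE-MMP28 it crosses 0.

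In complex I, 5 of 37 tested genes rose with anti-IL-8 over control (13.5%), beside 9.77% of all genes and 11.5% of protein-coding genes. They were NDUFB9, NDUFB7 and NDUFB2 of the membrane arm, and NDUFS7 and NDUFS8, which carry iron-sulfur clusters near the quinone site. NDUFB9 (chr8:124539101-124580648) had 180, 183 and 182 CPM in control and 379, 305 and 307 in anti-IL-8, a rise of 0.86 ± 0.20 (adjusted p = 0.0072). Of its coding bases, 10.9% overlap TATDN1 on the other strand, and the same holds for 48.5% in NDUFS7, whose partner is AC005329.1, and 45.2% in NDUFB2. Reads there cannot be told apart unless strand was counted. NDUFS7 (chr19:1383527-1395589) had 13.7, 11.8 and 14.9 against 21.3, 22.4 and 23.0 (0.72 ± 0.19, adjusted p = 0.013), a call lost without control replicate 2 (0.069). NDUFS8 had 58.2, 53.3 and 56.1 against 95.4, 88.8 and 84.2 (0.68 ± 0.19, adjusted p = 0.019), lost in 3 of the 12 fits with 1 library left out: without control replicate 2 (0.074) or 3 (0.065) or anti-IL-8 replicate 1 (0.064). In each of these, the lowest anti-IL-8 library exceeded the highest control library. NDUFB2 rose by 0.61 ± 0.18 (adjusted p = 0.022), lost in 5 of those 12 fits, without any control library or without anti-IL-8 replicate 1 or 3 (adjusted p up to 0.10). NDUFB7 rose by 0.69 ± 0.23 (adjusted p = 0.045), lost in 8 of the 12, among them those without any 1 control or anti-IL-8 library (adjusted p up to 0.15). With offsets for transcript length and GC, NDUFS7, NDUFS8 and NDUFB7 were at 0.33, 0.31 and 0.29 and none was called. Among core subunits that were not called, NDUFV1 was at 0.42 ± 0.17 (adjusted p = 0.078) and NDUFS1 at -0.27 ± 0.12 (adjusted p = 0.13).

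In complex IV, 4 genes rose (28.6%, beside 9.77% of all genes) and all 14 tested were above 0. COX7A2L went from 87.8, 93.3 and 78.5 CPM in control to 172, 142 and 145 in anti-IL-8 (0.82 ± 0.13, adjusted p = 4.9e-04). NDUFA4L2 (chr12:57234903-57240715) went from 3.66, 2.48 and 2.43 to 6.95, 6.17 and 4.67, a 2.07-fold rise (1.05 ± 0.25, adjusted p = 0.0096, lost without control replicate 2 or 3, at 0.052 each). COX8A, a small subunit, went from 58.3, 55.7 and 49.8 to 111, 93.8 and 99.3 (0.89 ± 0.26, adjusted p = 0.023), lost in 5 of the 12 fits, without any control library or without anti-IL-8 replicate 1 or 3 (adjusted p up to 0.092), and with FPKM (0.056 and 0.055). In all 3 genes every anti-IL-8 library lay above every control library. For COX8A, 55.1% of coding bases also lie in exons of AP000721.1. COX5A rose by 0.47 ± 0.15 (adjusted p = 0.031) but was lost in 6 fits, those without any 1 library of either group (adjusted p up to 0.11). COX4I1 (0.46 ± 0.20, adjusted p = 0.11) and COX5B (0.39 ± 0.26, adjusted p = 0.30) did not pass.

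In complex V, 3 of 19 tested genes rose (15.8%, beside 9.77% of all genes). ATP5F1D, the delta subunit of the catalytic F1 part, had 47.1, 50.3 and 43.3 CPM in control and 91.8, 84.3 and 92.4 in anti-IL-8 (0.93 ± 0.25, adjusted p = 0.016). It was lost without control replicate 3 (0.070) or anti-IL-8 replicate 3 (0.055), and offsets for length and GC lowered its value to 0.50. ATP5MC1, ATP5MC2 and ATP5MC3 encode the same mature c subunit of the membrane rotor. ATP5MC1 rose by 0.76 ± 0.19 (adjusted p = 0.011, lost without control replicate 3, at 0.056). ATP5MC2 rose by 0.65 ± 0.18 (adjusted p = 0.018), lost in 4 fits, without any control library or without anti-IL-8 replicate 1 (adjusted p up to 0.069), and ATP5MC3 was at 0.39 ± 0.15 (adjusted p = 0.072). ATP5IF1 was at 0.66 ± 0.23 (adjusted p = 0.052). ATP5F1A (0.01 ± 0.12) and the catalytic ATP5F1B (0.20 ± 0.13) had adjusted p-values of 0.97 and 0.27.

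Among the members, complexes II and III held no called gene, with 4 and 9 tested. CYC1, the complex III subunit outside the name rule, had 134, 120 and 111 CPM in control and 188, 195 and 208 in anti-IL-8. Every anti-IL-8 library of CYC1 lay above every control library, and the complex III values here leave this gene out. SDHA was at 0.29 ± 0.12 (adjusted p = 0.087), SDHB at 0.13 ± 0.13, SDHC at 0.09 ± 0.12 and SDHD at -0.0024 ± 0.12. The complex III members ranged from 0.03 for UQCRB to 0.53 for UQCRQ (adjusted p = 0.077), with UQCRC1 at 0.20 ± 0.15, UQCRC2 at 0.09 ± 0.11 and UQCRFS1, the Rieske iron-sulfur protein, at 0.09 ± 0.12. The medians of complexes I to V were 0.42, 0.11, 0.25, 0.42 and 0.20, and the differences between complexes were not tested.

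**Figure D3:**
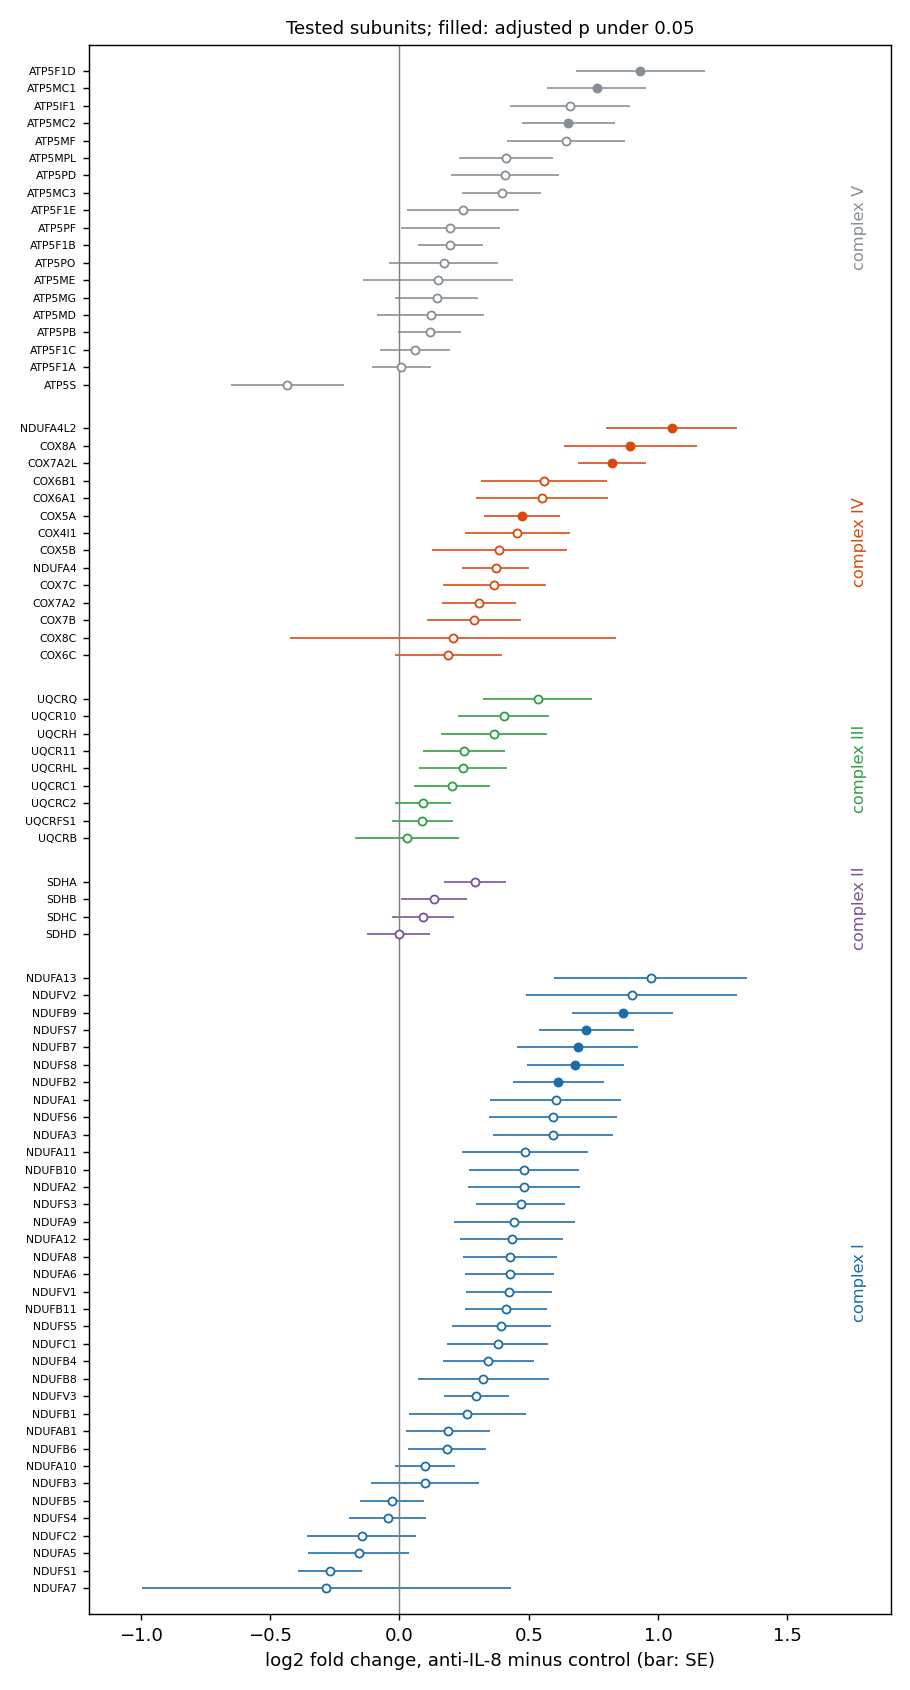
Log2 fold change (x axis) of tested subunit genes in anti-IL-8 minus control, with bars of 1 SE, grouped by complex and sorted within it; filled points passed an adjusted p of 0.05. The 12 filled points lie in complexes I (5), IV (4) and V (3), all above 0. They are 13.5%, 28.6% and 15.8% of the tested members of these complexes, beside 9.77% of all genes that rose.

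The members' transcripts are short, with a median length of 703 bases against 1855 for other protein-coding genes tested. In anti-IL-8 against control, members up to 700 bases had a median of 0.37 (0.07 for other genes of that length), those of 700 to 1500 bases 0.41 (0.13) and longer ones 0.25 (-0.10). The part of transcript length in the members' rise was not tested. Members whose promoter held the NRF1 letters had a median of 0.39 and those without 0.38, and the values were 0.40 and 0.37 for the ETS letters and 0.20 and 0.39 for the YY1 letters. The part of the factors that bind such letters was not tested either.

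With anti-VEGFA against control, 2 members rose, beside 5.6% of all genes that rose and 11.0% that changed in either direction. NDUFA13 had 1.24, 1.39 and 0.711 CPM in control and 4.16, 3.30 and 1.97 in anti-VEGFA (1.49 ± 0.36, adjusted p = 0.015), from only 12 to 70 counts per library. It was not called without control replicate 3 (adjusted p = 0.073) or anti-VEGFA replicate 1 (0.051). NDUFA4L2 had 5.94, 5.46 and 3.89 CPM in anti-VEGFA (0.83 ± 0.26, adjusted p = 0.045) and was lost in 6 of the 12 fits with 1 library left out, with adjusted p up to 0.17. Unadjusted, 13 members passed 0.05 as higher and 3 as lower (NDUFB5, NDUFS1 and NDUFS4), against 14.3% and 12.6% of all genes. The median was 0.07, from -0.02 to 0.23 with 1 library left out. The number called was 0 and 1 without control replicates 3 and 2 (5.8% and 4.02% of all genes were called in those fits), 1, 9 and 9 without OE-MMP28 replicates 1, 2 and 3 (8.73%, 15.7% and 14.9%), 1 without anti-IL-8 replicate 2 (9.55%) and 4 without anti-VEGFA replicate 1 (10.2%).

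Between the antibody groups, anti-VEGFA lay below anti-IL-8 for most members. No member passed the adjusted threshold by edgeR (0.199% of all genes did), and DESeq2 called COX7A2L (1.2% of members), beside 1.53% of all genes. At an unadjusted p under 0.05, 0 members were higher and 13 lower in anti-VEGFA, against 9.39% and 5.62% of all genes. The median log2 fold change was -0.23 (0.02 over all genes), with 9 of 83 above 0, and it stayed between -0.39 and -0.15 with any 1 library left out. COX7A2L had 172, 142 and 145 CPM in anti-IL-8 and 101, 119 and 102 in anti-VEGFA, 2 separate groups (-0.51 ± 0.13, adjusted p = 0.10). COX5A was at -0.38 ± 0.15 (adjusted p = 0.25).

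**Figure D4:**
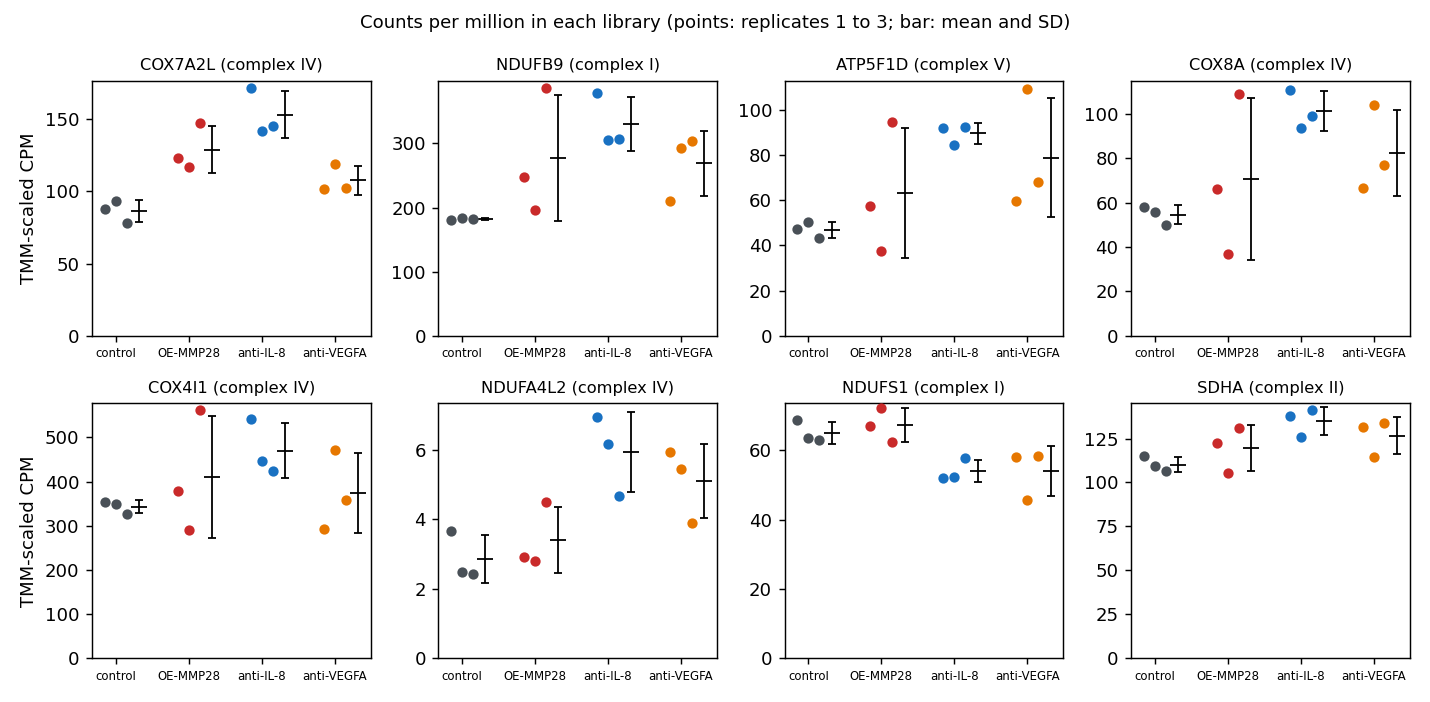
TMM-scaled CPM of 8 subunit genes in each library (points, replicates 1 to 3 from left to right) with the mean and SD of each group (bars), on axes that start at 0. COX7A2L and NDUFA4L2 are higher in all 3 anti-IL-8 libraries than in control, NDUFS1 is lower, and the OE-MMP28 replicates of COX8A and ATP5F1D spread widely.

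The subunits encoded by mitochondrial DNA did not simply follow the nuclear ones. Their median log2 fold change was 0.41 in OE-MMP28, 0.35 in anti-IL-8 and 0.55 in anti-VEGFA against control, with 13 of 13 above 0 each time. The anti-VEGFA value rested on replicate 2, the library with 17.8% mitochondrial DNA counts, and without it the median was 0.04 with 8 of 13 above 0. Without OE-MMP28 replicate 3 the OE-MMP28 median was 0.24. Only MT-ATP8 in anti-IL-8 passed the adjusted threshold (0.94 ± 0.27, adjusted p = 0.024). Between anti-VEGFA and anti-IL-8 their median was 0.18, against -0.23 for the nuclear subunits, and without anti-VEGFA replicate 2 it turned to -0.36.

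Other genes of the pathway were read from fixed lists. In OE-MMP28 against control, none of the 54 tested assembly factors, 18 enzymes of the TCA cycle, 13 carriers and cytochrome c genes and 11 regulators of mitochondrial genes passed the adjusted threshold, and their medians were 0.12, 0.08, 0.15 and 0.06. None passed in either antibody group against OE-MMP28. In anti-IL-8 against control, 5 assembly factors rose and 0 fell, 3 carriers and cytochrome c genes rose and 0 fell, 3 TCA cycle enzymes rose and 1 fell, and 2 regulators rose and 2 fell. As shares of each list, 9.26%, 23.1%, 16.7% and 18.2% rose, beside 9.77% of all genes. The regulators, named after their values were seen, were POLRMT, the mitochondrial RNA polymerase (0.74 ± 0.15, adjusted p = 0.0030), and ESRRA, a nuclear receptor of respiratory genes (0.67 ± 0.16, adjusted p = 0.0084), which rose. TFAM, which packages and transcribes mitochondrial DNA, fell by 0.47 ± 0.16 (adjusted p = 0.041), and GABPB1, the partner of GABPA, fell by 0.49 ± 0.15 (adjusted p = 0.028). In anti-VEGFA against control, 4 of 11 regulators rose (36.4%, beside 5.6% of all genes) and none of the other 3 lists held a call.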

How the data were processed

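RNA-seq libraries from 12 TAM samples in 4 groups were assigned from their labels. Per the labels and the submitters' processing notes, reads were aligned with HISAT2 2.0.5 and the authors counted them per gene with featureCounts 1.5.0-p3. The deposited counts are whole reads for 58735 genes, whose IDs and positions match GENCODE 29 (GRCh38). FPKM values were computed and deposited by the authors, and served here for levels between genes and as an alternative. Fold changes and p-values of the authors' own comparisons are in the same table and were not used.

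Counts were analysed in R 4.3.3 with edgeR 4.0.16: filterByExpr kept 16046 genes, libraries were scaled by TMM, and a quasi-likelihood fit of all 4 groups gave 6 comparisons with Benjamini-Hochberg adjustment. The study's methods name limma. A log2 fold change uses a prior count of 2. The code was tested on simulated data. At these depths 3 counts are 0.160 to 0.189 CPM.

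Members and lists were chosen with earlier results of these data known. Named genes were members past the adjusted threshold (up to 12 per comparison), the highest and lowest member of each complex in the 3 comparisons of the study, a set of core subunits and isoforms, and called genes of the other lists in those comparisons. Genes named beyond this were chosen after their values were seen. The individual values of 1 member are not reported here. Alternatives were DESeq2 1.42.0, limma 3.58.1 (voom, and FPKM with pseudocounts of 1 and 0.1), other scalings and filters, fits of 2 groups, the mitochondrial DNA share as a covariate, the replicate number as a block, and each library left out. Leaving out 3 libraries and offsets for length and GC were added after the data were seen. Figures were drawn with Python 3.11.15, pandas 2.3.3 and matplotlib 3.10.9.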

Additional observations from a re-analysis of the deposited data

How the results depend on the processing

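At an unadjusted p under 0.05, the numbers of members called were 5 (OE-MMP28 against control), 8 (anti-IL-8 against OE-MMP28), 11 (anti-VEGFA against OE-MMP28), 39 (anti-IL-8 against control), 16 (anti-VEGFA against control) and 13 (between the antibodies). In that order, 6.02%, 8.43%, 2.41%, 45.8%, 15.7% and 0% of members were higher, beside 5.93%, 13.4%, 10.4%, 17.2%, 14.3% and 9.39% of all genes. Lower were 0%, 1.20%, 10.8%, 1.20%, 3.61% and 15.7% of members, beside 8.61%, 15.9%, 8.44%, 18.7%, 12.6% and 5.62% of all genes. In the same order, no filter gave 2, 3, 1, 25 and 7 for the first 5. These were 2.25%, 3.37%, 1.12%, 28.1% and 7.87% of members, beside 2.05%, 4.18%, 1.16%, 9.71% and 6.13% of all genes. DESeq2 gave 1, 2, 19, 5 and 1 for the last 5, or 1.2%, 2.41%, 22.9%, 6.02% and 1.2% of members. Its shares of all genes were 13.2%, 2.67%, 23.4%, 13.1% and 1.53%. The mitochondrial DNA share as a covariate gave 3 and 1 in the antibody groups against OE-MMP28 and 1 between the antibodies. These were 3.61%, 1.2% and 1.2% of members, beside 10.8%, 1.93% and 1.1% of all genes. Fits of only 2 groups gave 46 (anti-IL-8, 56.8%) and 7 (anti-VEGFA, 8.64%) against control, beside 39.8% and 13.6% of all genes. FPKM with a pseudocount of 0.1 gave 1 (1.2%) for anti-VEGFA against control, beside 8.91%. Offsets for length and GC, chosen after seeing the data, gave 21 (25.3%) for anti-IL-8 against control and 1 (1.2%) between the antibodies. The shares of all genes there were 13.9% and 0.885%. Without the 3 libraries of low TMM factor, also chosen after seeing the data, 23 members were called in anti-IL-8 against OE-MMP28, 2 in anti-VEGFA against OE-MMP28 and 23 in anti-IL-8 against control, and the median of OE-MMP28 against control was 0.0019. The called members were 27.7%, 2.41% and 27.7%, beside 20.9%, 5.81% and 20.2% of all genes. Scaling by library totals left 12 members higher and 0 lower in anti-IL-8 against control, while 6.59% of all genes rose and 11.7% fell, against 9.77% and 10.9%. The cause of these changes was not tested.

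With each library left out, the number called ranged from 0 to 2 in OE-MMP28 against control, from 0 to 30 in anti-IL-8 and from 0 to 4 in anti-VEGFA against OE-MMP28, from 3 to 33 in anti-IL-8 and from 0 to 9 in anti-VEGFA against control, and was 0 throughout between the antibodies. The share of all genes called moved too, in that order 1.79% to 3.89%, 0% to 25%, 0.0486% to 8.48%, 7.94% to 26.2%, 4.02% to 15.7% and 0.0181% to 0.68%. The medians ranged from 0.011 to 0.35, from 0.038 to 0.37, from -0.22 to 0.13, from 0.31 to 0.45, from -0.02 to 0.23 and from -0.39 to -0.15 in the same order of comparisons.

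The replicate numbers did not pair the samples: deviations of same-numbered libraries had correlations of -0.16 to 0.24, and 4 of 18 exceeded 0.1. With the replicate number as a block, 1, 0, 0, 11, 1 and 0 members were called in the 6 comparisons (1 in anti-VEGFA against control, where NDUFA4L2 had adjusted p = 0.051), and the medians were 0.21, 0.16, -0.11, 0.37, 0.06 and -0.24. The shares of all genes called in that fit were 3.2%, 4.95%, 0.231%, 21.5%, 10.9% and 0.162%.

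COX7A2L and NDUFB9 stayed called in anti-IL-8 against control under all 26 alternatives. With 3 libraries per group, depth limits mainly NDUFA7, NDUFV2, NDUFA13 and COX8C.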
